A study of Mus musculus with 22 samples.

Results

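Clec4f, Timd4, Vsig4, Cd5l, Marco, Adgre1, Csf1r, Cd163, Folr2 and Id3 are genes by which the resident macrophages of the liver, the Kupffer cells, are recognised. The members were the rows of the liver count table whose symbol equals one of these names, and 10 of the 55573 genes of the table were chosen this way. All 10 passed the filter of a mean of at least 10 counts over the livers, which left 14062 genes to be tested. Kupffer cells sit inside the liver sinusoids, clear particles, dying cells and iron-laden red cells from the blood, and in the healthy adult mouse renew themselves with little help from the bone marrow. Their identity depends on colony-stimulating factor 1 signalling and on cues from the neighbouring stellate, endothelial and parenchymal cells, among them Notch ligands and transforming growth factor β family ligands. In steatohepatitis, resident Kupffer cells can be lost and replaced by macrophages that descend from blood monocytes, which at first lack Timd4 and can take on Clec4f.

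The livers came from 22 C57BL/6 mice about 3 months old. Liver-Flcn-/- mice (labelled FLCN KO) were homozygous for a floxed Flcn allele (Flcn f/f) and carried Albumin-Cre, and the control Cre mice were FlcnWT/WT with Albumin-Cre+/-, so that the transgene was present in all groups. Albumin-Cre is active in hepatocytes and not in Kupffer cells, so the deletion was not directed at the cells these markers describe. From 6 weeks of age the mice received a chow diet or a methionine- and choline-deficient (MCD) diet, each for 6 weeks. The paper describes the MCD diet as also high in sucrose and fat. Which component of the diet moved a gene was not tested. The groups were Cre on chow (6 livers), Cre on MCD (5), liver-Flcn-/- on chow (5) and liver-Flcn-/- on MCD (6). Between 13751347 and 21144388 reads were counted on genes per library. The tissue is whole liver, in which fewer Kupffer cells and less of an mRNA per Kupffer cell cannot be told apart.

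Several libraries stood apart. One Cre liver on MCD, replicate 3, held much RNA of skeletal muscle (Acta1, the actin of skeletal muscle, at 599 CPM, read counts scaled to a common library size) and was the lowest of its group for 9 of the 10 markers, so the called differences of the markers that use it, and gene list counts that changed by 2 or more genes, are also given without it. Cre MCD replicate 4 (Acta1 at 29.6 CPM) and liver-Flcn-/- MCD replicate 3 (13.8 CPM), which was the lowest of its group for 6 markers, held less of it, and Acta1 was at most 4.12 CPM in the other livers. The labels give no sex, and Xist, the RNA of the inactive X chromosome, was abundant in 3 livers of every group. Ddx3y, a gene of the Y chromosome, was at 55.6 to 128 CPM in the livers without Xist, but was also counted in some livers with Xist, up to 15.6 CPM in Cre MCD replicate 1 and liver-Flcn-/- chow replicate 2, and the source of these reads was not tested. The 5 chow livers without Xist (3 Cre and 2 liver-Flcn-/-) were also the 5 chow libraries with a low share of uniquely mapped reads, so sex and library quality cannot be told apart on chow. Flcn itself, counted over the whole gene, was at 31.7 ± 4.91 CPM in Cre livers (SD, n = 6) and 20.4 ± 2.79 CPM in liver-Flcn-/- livers (n = 5) on chow, with no overlap (log2 fold change −0.63 ± 0.173 [SE], edgeR adjusted p = 0.0249). On MCD it was at 29.2 ± 8.42 (n = 5) and 26.0 ± 5.13 CPM (n = 6), the groups overlapped, and the difference did not pass the test (−0.17, adjusted p = 0.567).

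Promoter sequence from RefSeq (GRCm38.p6; 250 bases before to 50 bases after a start site) matched 8 of the 10 markers, with 9 windows. The windows of Timd4, Marco and Clec4f are shown because Timd4 and Clec4f are the markers most restricted to resident Kupffer cells and Marco moved differently from them on MCD in Cre livers. They are written 5′ to 3′ on the strand of the gene, and capitals mark the letters GAGGAA (a core of sites for PU.1, the lineage factor of macrophages) and TGGGAA (a core of sites for RBPJ, the effector of Notch), each searched on both strands, so that TTCCCA is TGGGAA on the other strand.

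Clec4f, chr6:83656067-83656366, minus strand: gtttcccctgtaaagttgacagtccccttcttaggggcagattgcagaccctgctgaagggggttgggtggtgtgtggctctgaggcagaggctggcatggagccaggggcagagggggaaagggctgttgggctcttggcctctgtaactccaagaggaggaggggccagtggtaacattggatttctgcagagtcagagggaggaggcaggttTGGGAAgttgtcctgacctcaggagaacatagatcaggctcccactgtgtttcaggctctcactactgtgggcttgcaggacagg

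Timd4, chr11:46810549-46810848, plus strand: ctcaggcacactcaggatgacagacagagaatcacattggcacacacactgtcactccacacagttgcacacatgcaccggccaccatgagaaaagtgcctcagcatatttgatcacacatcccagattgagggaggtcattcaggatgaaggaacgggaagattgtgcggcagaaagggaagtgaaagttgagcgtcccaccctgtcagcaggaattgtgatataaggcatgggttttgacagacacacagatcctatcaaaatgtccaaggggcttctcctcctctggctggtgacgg

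Marco, chr1:120504975-120505274, minus strand: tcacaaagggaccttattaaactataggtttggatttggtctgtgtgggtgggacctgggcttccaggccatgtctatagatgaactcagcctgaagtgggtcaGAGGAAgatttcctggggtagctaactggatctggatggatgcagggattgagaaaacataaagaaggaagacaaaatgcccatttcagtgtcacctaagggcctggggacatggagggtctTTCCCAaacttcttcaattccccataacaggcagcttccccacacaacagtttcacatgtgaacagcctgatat

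TGGGAA lay 35 bases before the RefSeq start of Clec4f, and the window of Marco held GAGGAA 146 bases before its start and TGGGAA 24 bases before it. The window of Timd4 held neither. Among all 32851 windows, 28.3% held GAGGAA and 25.6% held TGGGAA, so single matches are common. The letters TCACGTG, an E-box read by the TFEB and TFE3 factors that folliculin restrains, occurred in 3.77% of all windows and in 0 of the 9 marker windows searched. GAGGAA also occurred in the windows of Cd5l, Id3 and Vsig4. These matches describe letters in the windows and not binding.

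In Cre livers on chow, the levels per kilobase of exon placed Cd5l first (74.7 CPM per kb), followed by Clec4f (62.9), Id3 (39.0) and Vsig4 (29.7). Folr2 (11.1 CPM per kb) and Csf1r (10.5) followed. Adgre1 (5.74), Marco (5.33), Timd4 (5.00) and Cd163 (2.96 CPM per kb) were lowest. Cd5l and Clec4f, Id3 and Vsig4, Folr2 and Csf1r, and Adgre1, Marco and Timd4 did not differ from their neighbours by more than the larger SD of the pair, and the other steps in this order exceeded it. All 10 markers were detected in every liver, which does not by itself show from which cells the mRNAs came.

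**Figure D1:**
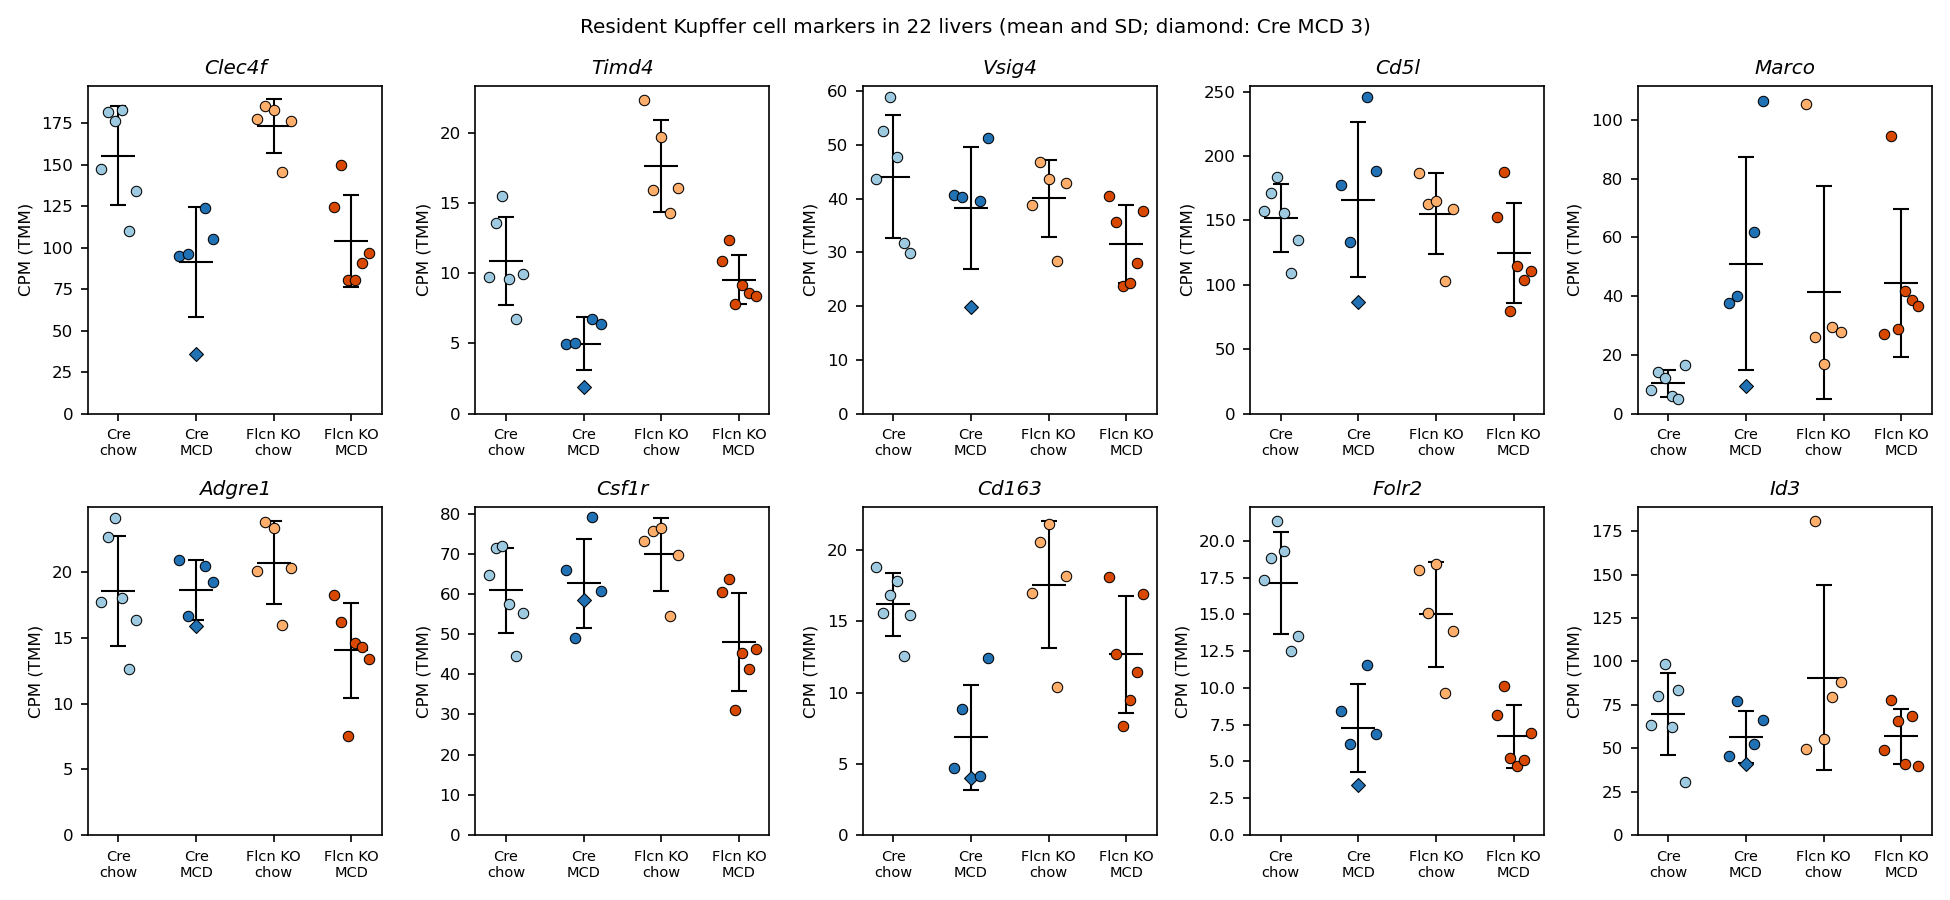
Level of each marker in the 22 livers, in CPM after TMM scaling (vertical axes, from 0), by genotype and diet. Points are livers, horizontal lines and bars are the mean and SD, and the diamond is Cre MCD replicate 3; Timd4 is lower in the 5 Cre livers on MCD than in any other liver, and its liver-Flcn-/- and Cre livers on chow overlap (14.3 CPM in the lowest and 15.5 CPM in the highest), and Marco has 1 high liver in each of the 2 liver-Flcn-/- groups.

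The first question was how the MCD diet moved the markers within each genotype. In Cre livers Timd4, Clec4f, Cd163 and Folr2 fell and Marco rose. In liver-Flcn-/- livers Timd4, Clec4f, Folr2, Adgre1 and Csf1r fell and none rose. Of the 10 markers, 4 were called lower and 1 higher in Cre livers (edgeR quasi-likelihood test, Benjamini-Hochberg adjusted p under 0.05), where the diet called 57.5% of all tested genes, 28.2% lower and 29.3% higher. For the liver-Flcn-/- genotype 5 of 10 were called lower and 0 higher, where 45% of all tested genes were called, 22.5% in each direction. The median log2 fold change of the markers was −0.26 in Cre and −0.55 in liver-Flcn-/- livers, beside 0.01 and 0.00 over all tested genes. The groups did not overlap, with MCD lower, for 3 markers in Cre livers (background 16.9%) and 1 in liver-Flcn-/- livers (background 14.8%), and with MCD higher for 0 in both (backgrounds 15.6% and 14.4%). TMM, which scales libraries so that most genes do not differ, lowered every log2 difference by 0.42 for the diet in Cre livers, by 0.26 for the diet in liver-Flcn-/- livers and by 0.15 for the genotypes on chow relative to library totals, so the diet differences are relative to that shift. Without TMM the split of the called markers in Cre livers was 3 lower and 4 higher in place of 4 and 1, and in liver-Flcn-/- livers 2 were called lower and 0 higher. Without Cre MCD replicate 3 the counts of called markers were the same, and the median in Cre livers was −0.12.

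Timd4 (ENSMUSG00000055546, chr11:46810800-46844332 on GRCm38) encodes TIM-4, the phosphatidylserine receptor through which Kupffer cells bind dying cells, and is found on resident rather than newly recruited cells. In Cre livers on chow it ranged from 6.77 to 15.5 CPM with a median of 9.84 CPM. In the 5 Cre livers on MCD it was at 4.94, 5.00, 1.88, 6.74 and 6.35 CPM, all below every Cre liver on chow. The 5 liver-Flcn-/- livers on chow were at 22.3, 15.9, 19.8, 14.3 and 16.1 CPM, and the lowest of them lay under the highest Cre liver on chow. On MCD, liver-Flcn-/- livers ranged from 7.84 to 12.4 CPM with a median of 8.86 CPM, which lay below every liver-Flcn-/- liver on chow and above every Cre liver on MCD. The diet lowered Timd4 2.18-fold in Cre (log2 fold change −1.13 ± 0.244, adjusted p = 0.000501) and 1.85-fold in liver-Flcn-/- livers (−0.89 ± 0.232, adjusted p = 0.00367), and the 2 responses did not differ by the interaction test (0.24, adjusted p = 0.717; 95% interval −0.41 to 0.90). The fall in Cre livers was −0.92 without Cre MCD replicate 3 (adjusted p = 0.000482). In livers with Xist the diet differences were −1.25 (adjusted p = 5.47e-05) and −0.90 (adjusted p = 0.000992), and in livers without Xist −1.01 (adjusted p = 0.0851) and −0.98 (adjusted p = 0.0936).

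Clec4f (ENSMUSG00000014542, chr6:83644542-83656187) encodes a galactose-binding lectin that in mice is found on Kupffer cells. Cre livers on chow ranged from 109.8 to 183.0 CPM with a median of 162 CPM, and the 5 Cre livers on MCD were at 95.1, 96.3, 35.6, 124 and 105 CPM. Liver-Flcn-/- livers on chow were at 177, 186, 183, 146 and 176 CPM, and on MCD they ranged from 80.3 to 150 CPM with a median of 93.8 CPM. In both genotypes most MCD livers lay under the chow livers, with overlap at the edges. The fall was 1.70-fold in Cre (−0.77 ± 0.226, adjusted p = 0.00616) and 1.67-fold in liver-Flcn-/- livers (−0.74 ± 0.222, adjusted p = 0.00939), with an interaction of 0.03 (adjusted p = 0.969; 95% interval −0.59 to 0.65). In Cre livers it was −0.56 without Cre MCD replicate 3 (adjusted p = 0.00734). Without TMM neither fall passed the test (−0.35, adjusted p = 0.177, and −0.48, adjusted p = 0.0814). Among livers with Xist the differences were −0.87 (adjusted p = 3.26e-05) and −0.92 (adjusted p = 4.68e-05), and among those without −0.70 (adjusted p = 0.238) and −0.63 (adjusted p = 0.318).

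Folr2 (chr7:101839988-101857194), the folate receptor β of tissue-resident macrophages, had the largest fall of the 10 in liver-Flcn-/- livers. It was at 17.1 ± 3.46 CPM in Cre livers on chow (SD, n = 6) and at 8.44, 6.21, 3.38, 11.5 and 6.87 CPM in the 5 on MCD, none of which reached the lowest chow liver at 12.5 CPM. The level in liver-Flcn-/- livers was 15.0 ± 3.56 CPM on chow (n = 5) and 6.71 ± 2.14 CPM on MCD (n = 6), and 1 MCD liver at 10.2 CPM exceeded the lowest chow liver at 9.65 CPM. The falls were 2.35-fold (−1.23 ± 0.255, adjusted p = 0.000311) and 2.23-fold (−1.16 ± 0.25, adjusted p = 0.000716), and that of Cre livers was −1.05 without Cre MCD replicate 3 (adjusted p = 0.000652). Within livers with Xist they were −1.47 (adjusted p = 2.57e-05) and −1.16 (adjusted p = 0.000378), and within livers without Xist −0.94 (adjusted p = 0.135) and −1.26 (adjusted p = 0.0604).

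Cd163 (chr6:124304656-124330527), the receptor that takes up haemoglobin bound to haptoglobin, was at 16.2 ± 2.19 CPM in Cre livers on chow (n = 6), and the 5 on MCD were at 4.74, 8.88, 4.03, 4.12 and 12.5 CPM. All 5 lay under the lowest chow liver at 12.6 CPM (2.37-fold lower; −1.24 ± 0.279, adjusted p = 0.000685), and the difference was −1.10 without Cre MCD replicate 3 (adjusted p = 0.00234). The levels in liver-Flcn-/- livers were 17.6 ± 4.46 on chow (n = 5) and 12.7 ± 4.11 CPM on MCD (n = 6), they overlapped, and the difference did not pass the test (−0.47, adjusted p = 0.161). The responses of the 2 genotypes did not differ by the interaction test (0.78, adjusted p = 0.219). Among Cre livers with Xist the difference was −0.95 (adjusted p = 0.031), and among those without it −1.91 (adjusted p = 0.000959).

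Marco (chr1:120474538-120505024), a scavenger receptor for bacteria and particles, moved the other way in Cre livers. It ranged from 4.80 to 16.6 CPM on chow with a median of 10.0 CPM, and on MCD the livers were at 37.6, 40.1, 9.33, 61.9 and 107 CPM. In 4 of 5 MCD livers Marco lay above every chow liver, and the exception was Cre MCD replicate 3. The rise was 4.98-fold (2.32 ± 0.524, adjusted p = 0.000736) and 2.59 on the log2 scale without that liver (adjusted p = 9.92e-05). In liver-Flcn-/- livers the diet made a difference of 0.12 (95% interval −0.87 to 1.10, adjusted p = 0.867), from 41.2 ± 36.3 CPM on chow (n = 5) to 44.5 ± 25.2 CPM on MCD (n = 6). It was 0.82 without liver-Flcn-/- chow replicate 1 (adjusted p = 0.168) and 0.68 without the 5 libraries of low unique mapping (adjusted p = 0.315). The interaction of −2.20 ± 0.717 did not pass the test (adjusted p = 0.0583). It was −1.49 without liver-Flcn-/- chow replicate 1 (adjusted p = 0.144), −1.57 without the low-mapping libraries (adjusted p = 0.233), −1.76 under limma-voom (adjusted p = 0.163) and −2.06 within livers without Xist (adjusted p = 0.613). The test was passed without Cre MCD replicate 3 (−2.47, adjusted p = 0.0193), under DESeq2 (−2.21, adjusted p = 0.0342), without TMM (−2.33, adjusted p = 0.042) and within livers with Xist (−2.20, adjusted p = 0.0211).

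Adgre1 (chr17:57358691-57483527) encodes F4/80 and Csf1r (chr18:61100598-61132149) the receptor for the growth factor on which macrophages depend. Both are carried by macrophages in general, recruited ones included. Between diets they differed in Cre livers by less than the spread among livers, with Adgre1 at 18.6 ± 4.19 and 18.6 ± 2.26 CPM (difference of 0.00, 95% interval −0.35 to 0.35) and Csf1r at 60.9 ± 10.6 and 62.7 ± 11.05 CPM (0.04, −0.28 to 0.36). Both fell on MCD in liver-Flcn-/- livers, Adgre1 from 20.7 ± 3.15 to 14.1 ± 3.63 CPM (−0.56 ± 0.177, adjusted p = 0.0138) and Csf1r from 69.9 ± 9.03 to 48.1 ± 12.2 CPM (−0.54 ± 0.161, adjusted p = 0.00923), with groups that overlapped. The interactions were −0.56 (adjusted p = 0.169) and −0.58 (adjusted p = 0.113), and that of Csf1r passed the test without TMM (adjusted p = 0.0481). Without TMM the falls were −0.29 (adjusted p = 0.189) and −0.27 (adjusted p = 0.166), and in Cre livers Adgre1 and Csf1r were then called higher on MCD (0.42, adjusted p = 0.048, and 0.46, adjusted p = 0.0173). The falls in liver-Flcn-/- livers were −0.76 (adjusted p = 0.0137) and −0.75 (adjusted p = 0.00371) among livers with Xist and −0.43 (adjusted p = 0.134) and −0.42 (adjusted p = 0.171) among those without.

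Vsig4 (chrX:96247203-96293438), a receptor for complement fragments, Cd5l (chr3:87357881-87371073), a secreted protein of tissue macrophages, and Id3 (chr4:136143497-136145755), a transcriptional regulator needed for Kupffer cells to develop and also expressed by other liver cells, were not called in any of the comparisons by the edgeR fit over all livers. Vsig4 was at 44.1 ± 11.5 and 38.3 ± 11.4 CPM in Cre livers on chow and MCD and at 40.1 ± 7.13 and 31.6 ± 7.27 CPM in liver-Flcn-/- livers, with diet differences of −0.21 and −0.34. Cd5l was at 152 ± 26.5, 166 ± 60.1, 155 ± 31.1 and 125 ± 38.6 CPM in the same order, with diet differences of 0.13 and −0.32. The largest SD relative to the mean among these 3 genes was that of Id3 in liver-Flcn-/- livers on chow (90.7 ± 53.1 CPM), where 1 liver reached 181 CPM and the others lay between 49.3 and 88.2 CPM. Its diet differences were −0.31 in Cre (adjusted p = 0.403) and −0.67 in liver-Flcn-/- livers (adjusted p = 0.073). The latter passed the test under DESeq2 (−0.67, adjusted p = 0.0493), without the 5 libraries of low unique mapping (−1.04, adjusted p = 0.0049), among livers with Xist (−1.01, adjusted p = 0.02) and in 3 of 22 fits that each left out 1 liver, and was 0.07 among livers without Xist (adjusted p = 0.911). Among livers with Xist Cd5l was called lower on MCD in liver-Flcn-/- livers (−0.53, adjusted p = 0.0349) and lower in liver-Flcn-/- than in Cre livers on MCD (−0.76, adjusted p = 0.015). Without TMM Cd5l was called higher on MCD in Cre livers (0.54, adjusted p = 0.0403), and the difference of Vsig4 there was 0.20 in place of −0.21, still without passing the test.

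**Figure D2:**
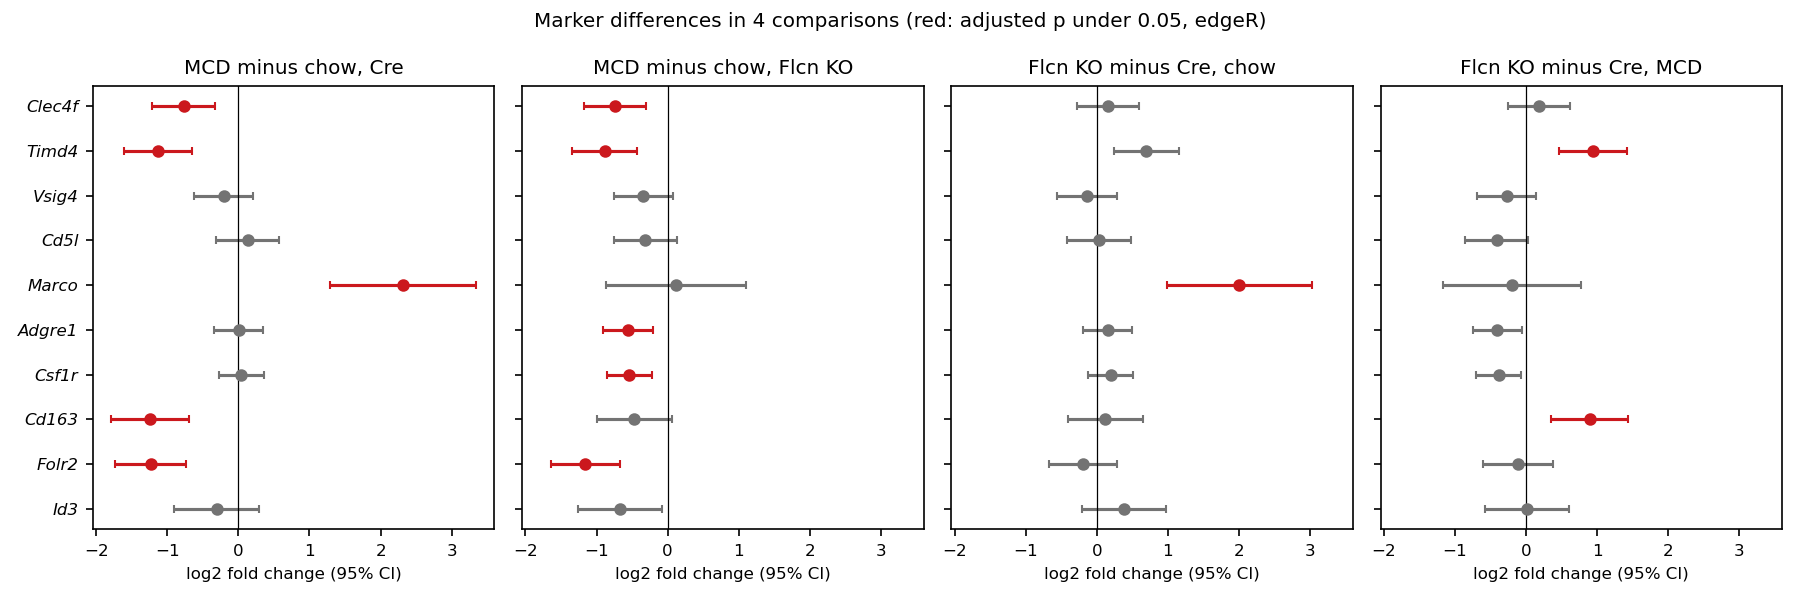
Log2 fold change of each marker (horizontal axes, with 95% intervals) for the MCD diet in each genotype and for liver-Flcn-/- against Cre livers on each diet. Red points passed an edgeR adjusted p of 0.05; 5 markers are red in each diet panel, Marco alone on chow, and Timd4 and Cd163 on MCD.

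The second question was how the genotypes differed on one diet. On chow Marco was higher in liver-Flcn-/- livers, and on MCD Timd4 and Cd163 were. On chow 1 of 10 markers was called higher and 0 lower, beside 8.62% of all tested genes called, 5.52% higher and 3.1% lower, with a median of 0.16 over the markers and −0.03 over all tested genes. On MCD 2 of 10 were called higher and 0 lower, beside 16.6% of all tested genes, 8.06% higher and 8.53% lower, with medians of −0.16 and −0.01. Without Cre MCD replicate 3 the markers called were Marco and Timd4 on chow and Timd4 alone on MCD, where their median was −0.35. The groups did not overlap, with liver-Flcn-/- higher, for 1 marker on chow (background 4.01%) and 1 on MCD (background 5.08%), and with liver-Flcn-/- lower for 0 on either diet (backgrounds 2.93% and 3.53%). The diet comparison in Cre livers and the genotype comparison on chow share the Cre chow livers, and the genotype comparison on MCD shares its livers with both diet comparisons.

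On MCD, Timd4 was 1.92-fold higher in liver-Flcn-/- than in Cre livers (0.94 ± 0.242, adjusted p = 0.0101), 0.73 on the log2 scale without Cre MCD replicate 3 (adjusted p = 0.0136), 0.61 among livers with Xist (adjusted p = 0.03) and 1.32 among those without (adjusted p = 0.0977). On chow its difference was 0.70 ± 0.233, just outside the threshold (adjusted p = 0.0668) and past it under DESeq2 (adjusted p = 0.0312) and without Cre MCD replicate 3 (adjusted p = 0.0146). It was 0.25 without the 5 libraries of low unique mapping (adjusted p = 0.745). Without liver-Flcn-/- chow replicate 1 it was 0.60, and with the replicate block 0.67 (adjusted p = 0.139 each). The chow difference was 0.26 (adjusted p = 0.418) among livers with Xist and 1.28 (adjusted p = 0.142) among those without. Clec4f, the other marker restricted to Kupffer cells, differed between genotypes by 0.16 on chow (95% interval −0.28 to 0.60, adjusted p = 0.716) and by 0.19 on MCD (−0.25 to 0.62, adjusted p = 0.634). Cd163 was 1.86-fold higher on MCD (0.89 ± 0.276, adjusted p = 0.0294), a call that was lost without Cre MCD replicate 3 (0.75, adjusted p = 0.0692). It was 0.48 (adjusted p = 0.386) among livers with Xist and 1.71 (adjusted p = 0.0122) among those without.

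Marco on chow was 4.01-fold higher in liver-Flcn-/- livers (2.01 ± 0.522, adjusted p = 0.0185). The livers were at 106, 26.2, 17.0, 29.5 and 27.9 CPM, and the highest Cre chow liver was at 16.6 CPM. Without the liver at 106 CPM the difference was 1.30 (adjusted p = 0.0939). It was 1.38 without the 5 libraries of low unique mapping (adjusted p = 0.269), 1.38 among livers with Xist (adjusted p = 0.0551) and 2.67 among those without (adjusted p = 0.209). The call was also lost under limma-voom (1.81, adjusted p = 0.0684) and with the replicate block (1.90, adjusted p = 0.0597). On MCD Marco differed between the genotypes by −0.20 under DESeq2 and was not called (adjusted p = 0.853). Adgre1 and Csf1r were at −0.40 (adjusted p = 0.124) and −0.38 (adjusted p = 0.109) in liver-Flcn-/- against Cre livers on MCD, and Folr2 at −0.12 (adjusted p = 0.81). Among livers with Xist these differences were −0.68 for Adgre1 (adjusted p = 0.0505) and −0.57 for Csf1r, which passed the test (adjusted p = 0.0403), and among those without they were −0.16 (adjusted p = 0.707) and −0.29 (adjusted p = 0.481). For the interaction 0 of 10 markers were called by edgeR and 3 had an unadjusted p under 0.05 (Marco, Adgre1 and Csf1r), where 8.83% of all tested genes were called, 3.29% upward and 5.54% downward. DESeq2 called 1 marker, Marco.

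To set the markers against another macrophage mRNA within the same liver, independent of library scaling, counts of Timd4, Clec4f and Cd5l were divided by those of Adgre1 (2 counts added to each). Adgre1 was not called for the diet in Cre livers, where 11 of 15 general macrophage genes rose (median log2 fold change 1.09). The ratio is therefore one to Adgre1 and not to macrophage mRNA as a whole. Relative to Adgre1, Timd4 was lowest in Cre livers on MCD and higher in liver-Flcn-/- than in Cre livers on both diets. The ratio of Timd4 to Adgre1 ranged from 0.537 to 0.645 in Cre livers on chow with a median of 0.578, and was 0.239, 0.304, 0.123, 0.333 and 0.334 in Cre livers on MCD. Among liver-Flcn-/- livers it was 1.11, 0.672, 0.846, 0.897 and 0.792 on chow and ranged from 0.598 to 1.04 on MCD with a median of 0.628. The Cre MCD livers lay under every other liver. The 2 genotypes did not overlap on either diet, so the same order held among livers with and without Xist. The mean log2 ratio was 0.55 higher in liver-Flcn-/- livers on chow and 1.47 higher on MCD (2.77-fold), and 1.21 lower on MCD than on chow in Cre livers (two-sided exact permutation test, p = 0.00433 each, the smallest that 6 against 5 livers allow; adjusted p = 0.013 over 12 tests). Without Cre MCD replicate 3 the differences on MCD and for the diet in Cre livers were 1.21 and −0.95 (exact permutation test, adjusted p = 0.0286 each). The genotype difference on MCD also holds that of the denominator, since by edgeR Timd4 itself differed by 0.94 and Adgre1 by −0.40. The highest ratio on MCD, 1.04, was that of liver-Flcn-/- MCD replicate 3, where Adgre1 was at 7.51 CPM. In liver-Flcn-/- livers the diet difference was −0.29 (exact permutation test, adjusted p = 0.24). Whether the diet differences of the 2 genotypes differ was not tested for ratios.

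The ratio of Clec4f to Adgre1 ranged from 7.29 to 10.1 in Cre livers on chow and was 4.53, 5.77, 2.23, 6.02 and 5.46 in those on MCD, without overlap (difference of the mean log2 ratio −0.88, exact permutation test, adjusted p = 0.013; −0.63, adjusted p = 0.0286, without Cre MCD replicate 3). It lay in liver-Flcn-/- livers between 7.78 and 9.08 on chow and between 5.47 and 10.6 on MCD (−0.18, adjusted p = 0.392 by the same exact test). The genotypes differed on MCD (0.70, exact permutation test, adjusted p = 0.0416), with overlap and with a difference of 0.45 without Cre MCD replicate 3, which did not pass the test (adjusted p = 0.0914 by the exact permutation test). This difference holds that of the denominator: by edgeR on MCD Clec4f itself differed by 0.19 (adjusted p = 0.634) and Adgre1 by −0.40 (adjusted p = 0.124), and the highest ratio, 10.6, was that of liver-Flcn-/- MCD replicate 3, where Adgre1 was at 7.51 CPM, the lowest of all livers. The ratio of Cd5l to Adgre1 was not called in any of the 4 comparisons, with differences of 0.04 and 0.25 between diets in Cre and liver-Flcn-/- livers and of −0.15 and 0.06 between genotypes on chow and MCD.

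**Figure D3:**
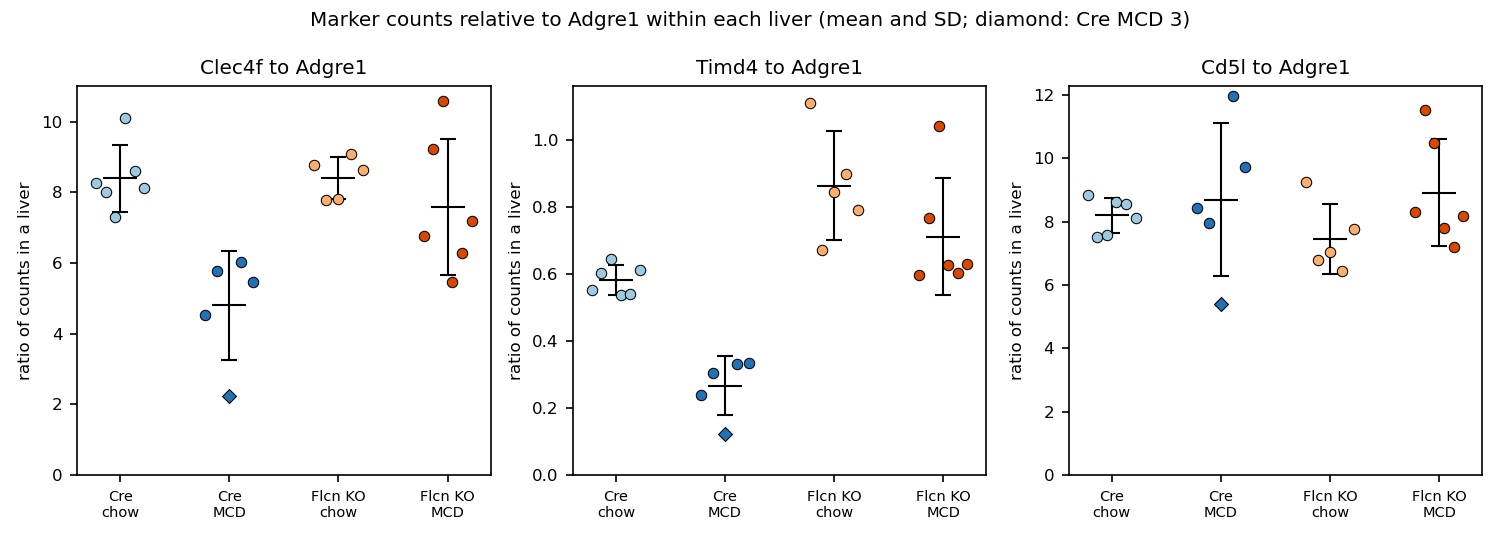
Counts of Clec4f, Timd4 and Cd5l divided by those of Adgre1 in the same liver (vertical axes, from 0), by group, with mean and SD. Points are livers and the diamond is Cre MCD replicate 3; for Timd4 the Cre livers on MCD lie at 0.123 to 0.334, under all other livers.

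The level of one marker in a liver went with that of the others. With group means removed, 44 of the 45 pairs of markers had a positive Pearson correlation of log2 CPM over the 22 livers, with a median of 0.589 and a range of −0.0014 to 0.923. The closest pairs were Cd5l with Folr2 (0.923), Clec4f with Timd4 (0.900), Clec4f with Folr2 (0.895) and Adgre1 with Csf1r (0.893). Id3 stood apart with a median correlation of 0.122 with the other markers, and Cd163 (0.420) and Marco (0.425) followed. Without Cre MCD replicate 3, over 21 livers, 41 pairs were positive with a median of 0.623, the closest pair was Cd5l with Csf1r (0.957), and the medians of Id3, Marco and Cd163 were 0.0062, 0.255 and 0.309. These are descriptions over livers that share the scaling of each library. Cre chow replicate 5 and liver-Flcn-/- chow replicate 4 were the lowest of their groups for 8 markers each, and Cre chow replicate 3 and liver-Flcn-/- MCD replicate 2 the highest of theirs for 7 each.

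**Figure D4:**
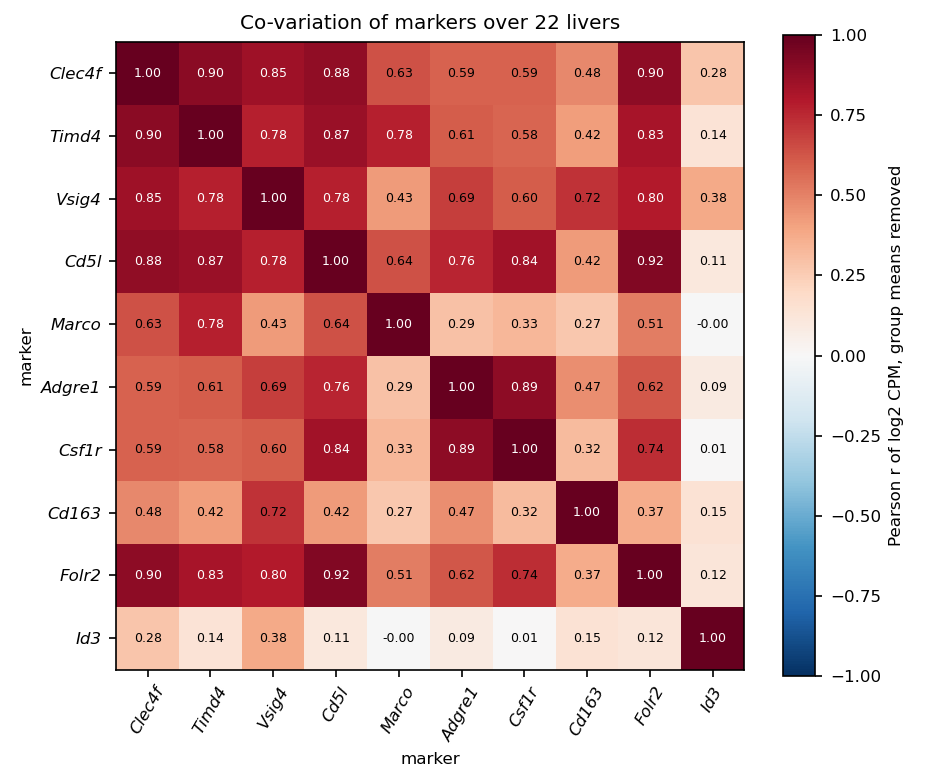
Pearson correlation of log2 CPM between markers (both axes) over 22 livers after removal of group means, coloured from −1 to 1. The row of Id3 is pale, and the block of Clec4f, Timd4, Vsig4, Cd5l and Folr2 is dark.

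Among 12847 genes with a mean of at least 1 CPM, the pattern over livers most like that of Clec4f was that of Fcna (ficolin A, a lectin of the complement system; r = 0.911 over 22 livers), followed by Cfp (properdin; 0.909), Timd4 (0.900), Folr2 (0.895) and Rbfox3 (0.890). Without Cre MCD replicate 3 these were 0.825, 0.848, 0.770, 0.871 and 0.818. For Vsig4 the nearest were Fcna (0.885), Cfp (0.867), Spic (a factor of iron-recycling macrophages; 0.862), Kcnj16 (0.852) and Clec4f (0.850), which without Cre MCD replicate 3 were at 0.816, 0.786, 0.851, 0.758 and 0.766, so that Spic then stood above Fcna. For Marco they were Rhog (0.812), Tmem160 (0.802), Jpt1 (0.795), Slc48a1 (a transporter that exports haem from the phagolysosome; 0.794) and Emc8 (0.785), none of which was among the nearest 5 of Clec4f or Vsig4. Their correlations were 0.705, 0.680, 0.660, 0.658 and 0.663 without that liver.

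Counts for other genes are to be read against the shares of all tested genes called. These were 29.3% higher and 28.2% lower for the diet in Cre livers, 22.5% each way in liver-Flcn-/- livers, 5.52% and 3.1% for genotype on chow, 8.06% and 8.53% on MCD, and 3.29% and 5.54% for the interaction. A list whose share is near these is not set apart by its count. Of 22 further identity genes of Kupffer cells 20 were tested (Cd209f and Pira2 did not pass the filter); 6 rose and 7 fell on MCD in Cre livers, and 3 rose and 9 fell in liver-Flcn-/- livers. In Cre livers 13 of 20 were called beside 57.5% of all tested genes, a share near the background, and in liver-Flcn-/- livers 12 of 20 beside 45%. Kcna2, a potassium channel subunit, fell in both (−1.86, adjusted p = 4.04e-08, and −1.67, adjusted p = 1.89e-07), as did the complement component C6 (−4.10 and −4.26), and Sdc3 fell in liver-Flcn-/- livers (−0.69, adjusted p = 0.000393). Hmox1, which degrades haem and is induced by stress in many cell types, rose on MCD in both (1.63 and 0.52), was higher in liver-Flcn-/- livers on chow (0.67) and responded less there (interaction −1.10, adjusted p = 0.000912). Slc40a1, the iron exporter ferroportin, was 1.97-fold higher in liver-Flcn-/- than in Cre livers on MCD (0.98 ± 0.151, adjusted p = 0.000143), with an interaction of 0.80 (adjusted p = 0.0218). Its mean was 155 ± 25.2 CPM in Cre and 305 ± 51.4 CPM in liver-Flcn-/- livers on MCD, without overlap. Genotype calls in the list were 2 higher and 1 lower on chow and 1 higher and 4 lower on MCD, with interaction calls of 1 and 1. Among the 4 lower on MCD were Abca9 (−0.98, adjusted p = 0.00197) and Dmpk (−0.68, adjusted p = 0.00745). The medians over the list were −0.20 and −0.36 for the diet in Cre and liver-Flcn-/- livers. The most abundant gene of the list, Paqr9, was at 439 ± 104 CPM in Cre livers on chow, and both it and Hmox1 are also expressed by other liver cells.

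Of 14 transcription factors of the Kupffer cell lineage, 5 rose and 6 fell on MCD in Cre livers and 1 rose and 7 fell in liver-Flcn-/- livers, which is 11 of 14 beside a background of 57.5% and 8 of 14 beside 45%. Spi1, which encodes PU.1, rose 2.11-fold in Cre livers (1.08, adjusted p = 3.57e-05), was lower in liver-Flcn-/- than in Cre livers on MCD (−0.87, adjusted p = 0.00197) and had an interaction of −1.06 (adjusted p = 0.0147). Nr1h3, the liver X receptor α that maintains Kupffer cell identity, fell by 0.39 on the log2 scale in liver-Flcn-/- livers (adjusted p = 0.00141), and Irf7, an interferon regulatory factor, fell there by 1.77 (adjusted p = 7.09e-10), with an interaction of −1.18. Pparg rose in both genotypes (1.29 and 1.00). Cebpa, the most abundant gene of this list and a factor of hepatocytes, fell in Cre livers (−0.87). Genotype calls were 1 higher and 0 lower on chow and 0 and 2 on MCD, with 0 and 2 for the interaction.

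Of 18 genes for niche signals and their receptors 17 were tested (Csf2 was not), and 8 rose and 4 fell on MCD in Cre livers against 2 and 4 in liver-Flcn-/- livers (12 of 17 beside 57.5% and 6 of 17 beside 45%). The calls in Cre livers were 6 and 3 without Cre MCD replicate 3. Csf1, a ligand of the receptor Csf1r, had an interaction of −1.13 (adjusted p = 0.00748), and Il34, the other ligand, was lower in liver-Flcn-/- than in Cre livers on MCD (−0.85, adjusted p = 0.00633). The adhesion molecules Icam1 (1.68) and Vcam1 (1.67) rose in Cre livers, and the interaction of Icam1 was −1.13 (adjusted p = 0.00363). Notch2 fell in liver-Flcn-/- livers (−0.50, adjusted p = 0.00101). Bmp6, a signal of endothelial cells, was higher in liver-Flcn-/- livers on MCD (0.74, adjusted p = 0.00559). In this list 1 gene was called higher and 0 lower between genotypes on chow, 1 and 6 on MCD, and 0 and 2 for the interaction. The most abundant gene was Eng.

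Receptors and bridging proteins for dying cells, 18 tested of 21, gave 6 higher and 3 lower on MCD in Cre livers and 4 and 4 in liver-Flcn-/- livers, so that 9 and 8 of 18 were called beside 57.5% and 45%. Mfge8, a bridge between phosphatidylserine and integrins, rose in both (2.73 and 1.85) and was higher in liver-Flcn-/- livers on chow (1.02), and Pros1, protein S, fell in both (−0.97 and −1.20). Stab2, a scavenger receptor of sinusoidal endothelium, was higher in liver-Flcn-/- livers on both diets (0.76 and 0.62), and Stab1, its relative on endothelium and macrophages, was lower on MCD (−0.57). Between genotypes 3 were called higher and 0 lower on chow and 1 and 4 on MCD, with 0 and 3 for the interaction, and Cd36, the most abundant, is also made by steatotic hepatocytes. Of 11 genes of haem and iron handling, 5 rose and 3 fell on MCD in Cre livers and 2 and 3 in liver-Flcn-/- livers, with 1 and 1 between genotypes on chow, 1 and 4 on MCD and 0 and 3 for the interaction; the diet counts were 8 and 5 of 11 beside 57.5% and 45%, and without Cre MCD replicate 3 those of liver-Flcn-/- livers were 4 and 3. Slc48a1 rose in Cre livers (0.82) and was lower in liver-Flcn-/- livers on MCD (−0.49), and Fth1, ferritin heavy chain, rose in both (0.52 and 0.78). Hpx, the plasma protein hemopexin made by hepatocytes, was its most abundant gene.

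Macrophage genes that do not separate resident from recruited cells mostly rose on MCD in Cre livers. Of 15 such genes, 11 rose and 0 fell there (median log2 fold change 1.09), where 29.3% of all tested genes rose, and 2 rose and 1 fell in liver-Flcn-/- livers (median 0.03), where 22.5% of all tested genes rose. Cd68, a lysosomal glycoprotein of macrophages, was at 12.2 ± 1.65 CPM in Cre livers on chow and 34.2 ± 8.11 CPM on MCD without overlap (1.48 ± 0.179, adjusted p = 5.3e-07), and at 17.5 ± 3.82 and 20.6 ± 5.31 CPM in liver-Flcn-/- livers. Its interaction was −1.24 (adjusted p = 0.00481). Cd14 rose on MCD in both genotypes, by 2.18 in Cre livers (edgeR adjusted p = 3.14e-07) and by 1.20 in liver-Flcn-/- livers (adjusted p = 0.000584). In liver-Flcn-/- livers Itgam also rose (0.91, adjusted p = 0.0236) and Mpeg1 fell (−0.90, adjusted p = 0.00534). Between genotypes on MCD 0 of 15 were higher and 10 lower (median −0.71), and 7 had a negative interaction (median −1.01), beside 8.53% and 5.54% of all tested genes, while on chow 0 were called. These counts were 11 and 9 without Cre MCD replicate 3. The summed level of the list was 439 ± 87.7 CPM and 808 ± 189 CPM in Cre livers on chow and MCD, and 561 ± 56.5 and 490 ± 141 CPM in liver-Flcn-/- livers, with Cd74 as its most abundant gene. The summed level of the 10 resident markers was 555 ± 99.2 and 504 ± 148 CPM in Cre livers and 642 ± 100.1 and 453 ± 116 CPM in liver-Flcn-/- livers, and without Cre MCD replicate 3 the sums of both lists in Cre livers on MCD were 769 ± 195 and 561 ± 86.5 CPM (n = 4).

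**Figure D5:**
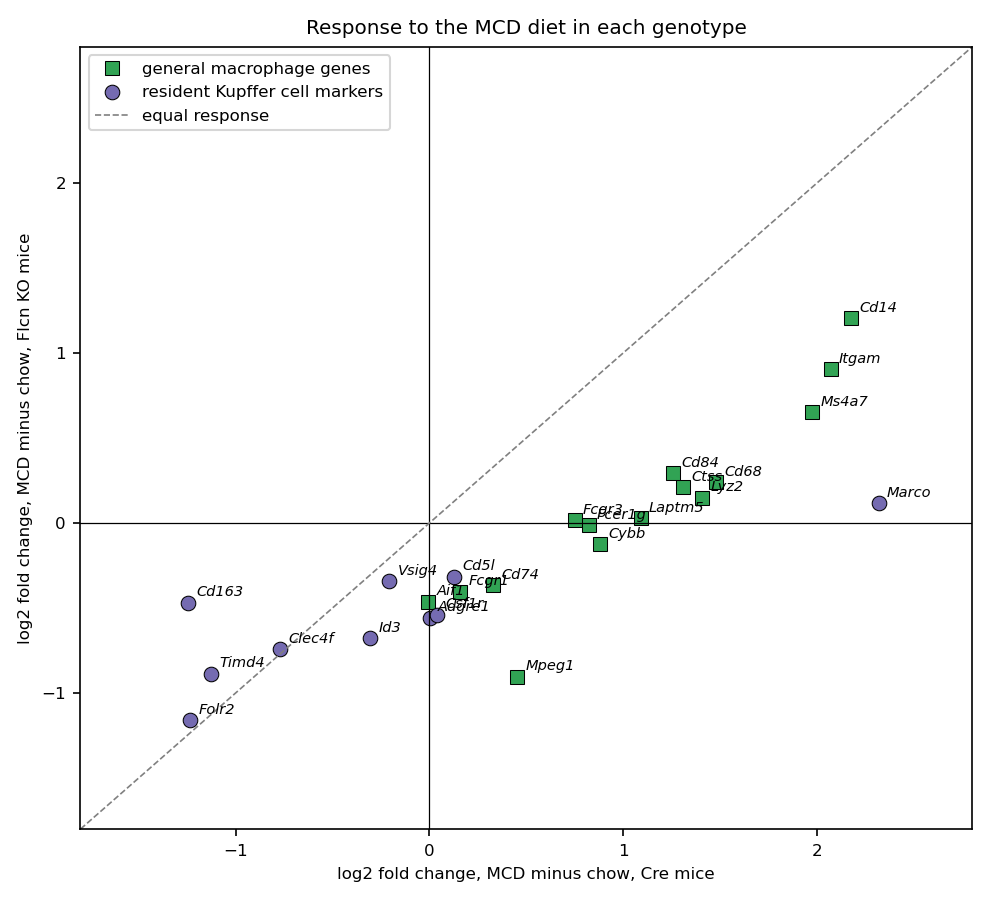
Log2 fold change on the MCD diet in Cre livers (horizontal axis) and in liver-Flcn-/- livers (vertical axis) for the 10 resident markers (circles) and 15 general macrophage genes (squares), with a dashed line of equal response. The squares lie under the line, with medians of 1.09 and 0.03; Clec4f, Timd4 and Folr2 lie close to it in the lower left.

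Of 15 genes of monocyte-derived and lipid-associated macrophages, 12 rose and 2 fell on MCD in Cre livers and 6 and 2 in liver-Flcn-/- livers, 5 were higher and 0 lower in liver-Flcn-/- livers on chow, 0 and 6 on MCD, and 8 had a negative interaction, beside 29.3% and 22.5% of all tested genes higher on MCD, 5.52% higher on chow, 8.53% lower on MCD and 5.54% with a negative interaction. The counts were the same without Cre MCD replicate 3. Trem2, a lipid receptor of such cells, was at 0.541 ± 0.203 CPM in Cre livers on chow and 14.3 ± 3.24 CPM on MCD, against 1.72 ± 0.876 and 6.36 ± 3.63 CPM in liver-Flcn-/- livers (interaction −2.81, adjusted p = 0.00208). Gpnmb, a lysosomal glycoprotein, rose in both (8.70 and 5.75), and Cx3cr1, a chemokine receptor of monocytes, was 3.03 higher on the log2 scale in liver-Flcn-/- livers on chow (adjusted p = 0.000185), differed by −0.72 on MCD (adjusted p = 0.223) and had an interaction of −3.75 (adjusted p = 0.00107). The list's most abundant gene, F10, is coagulation factor X of hepatocytes, and it was one of the 2 that fell. In liver-Flcn-/- livers the other was Fabp5 (−2.43, edgeR adjusted p = 3.25e-05). The part of recruited cells in the levels of Adgre1, Csf1r and Marco was not tested.

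Markers of other cells moved with the diet as well. Of 14 sinusoidal and vascular endothelial genes, 8 fell and 1 rose in Cre livers and 11 fell and 0 rose in liver-Flcn-/- livers (28.2% and 22.5% of all tested genes fell), with 0 calls between genotypes on either diet and for the interaction. Their summed level was 405 ± 79.2 and 275 ± 23.5 CPM in Cre livers on chow and MCD and 434 ± 81.1 and 281 ± 22.4 CPM in liver-Flcn-/- livers, and Ehd3 was the most abundant. Cdh5, the endothelial cadherin, fell in both (−0.77 and −0.86), by about as much as Clec4f. Of 10 hepatocyte genes 0 rose and 6 fell in each genotype on MCD, 2 were lower on chow and 3 on MCD in liver-Flcn-/- livers, and 1 had a positive interaction, with Alb the most abundant; without Cre MCD replicate 3, 8 fell in Cre livers and 3 were lower on chow and 1 on MCD. Of 13 stellate cell genes 6 rose and 2 fell in Cre livers and 1 and 3 in liver-Flcn-/- livers, 0 were called between genotypes on chow, 4 were lower on MCD and 3 had a negative interaction, among them Col1a1 (−2.99), and Dcn was the most abundant. Stellate cell calls without Cre MCD replicate 3 were 5 and 1 in Cre livers, 1 and 4 in liver-Flcn-/- livers, 2 lower on MCD and 2 with a negative interaction. Whether these cells take part in the differences of the Kupffer cell markers was not tested.

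Of 10 neutrophil genes the 5 tested all rose in Cre livers on MCD and 4 rose in liver-Flcn-/- livers, led by S100a9 (2.92 and 2.05), with 0 calls on chow, 1 lower on MCD and 0 for the interaction, and Ly6g, Mpo, Elane, Camp and Ngp were under the filter. Of 12 lymphocyte genes 10 were tested, and 5 fell on MCD in liver-Flcn-/- livers with 0 calls elsewhere, where Jchain, the most abundant, fell by 2.06. Of 6 bile duct genes 3 rose in Cre livers and 0 in liver-Flcn-/- livers, 2 were higher in liver-Flcn-/- livers on each diet and Spp1, the most abundant, had a negative interaction (−1.56). Of 6 red cell and spleen genes 5 were tested, 3 rose in Cre livers and 1 fell in liver-Flcn-/- livers, 1 was higher between genotypes on chow, 0 were called on MCD and 2 had a negative interaction, with Hbb-bs the most abundant. For the blood cell and bile duct lists the backgrounds are those above, and without Cre MCD replicate 3 the counts were 4 neutrophil genes higher in Cre livers and 2 lower between genotypes on MCD, 1 and 6 lymphocyte genes lower on MCD in Cre and liver-Flcn-/- livers, 1 bile duct gene higher between genotypes on MCD, and 2 red cell and spleen genes higher in Cre livers, 3 higher on chow and 0 for the interaction. Of 15 skeletal muscle genes 14 were called higher in Cre livers on MCD, 1 lower in liver-Flcn-/- livers, 15 lower between genotypes on MCD and 0 for the other comparisons, and without Cre MCD replicate 3, the liver with most muscle RNA, 11 were tested, 9 were called higher and 1 lower in Cre livers on MCD, and 0 between genotypes on MCD. The summed level of the list was then still 188 CPM in Cre MCD replicate 4 and 89.7 CPM in liver-Flcn-/- MCD replicate 3, against 8.87 to 39.8 CPM in the other livers. Without these 3 livers the markers called for the diet were 4 lower and 1 higher in Cre livers and 5 lower in liver-Flcn-/- livers, as with all livers, and Timd4 was 0.87 higher in liver-Flcn-/- than in Cre livers on MCD (adjusted p = 0.0217), while Cd163 did not pass there (0.66, adjusted p = 0.142). Myh1, the most abundant, reached 608 CPM in Cre MCD replicate 3, where the median of its group was 2.92 CPM.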

How the data were processed

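Total RNA of 22 mouse livers was made into mRNA libraries with adapters that hold molecular identifiers and sequenced as single reads. Per the labels and methods, the authors used bcl2fastq, Trimmomatic, STAR on GRCm38 and HTSeq. Versions, annotation and a collapse of identifiers are not given in the sources used here. The authors deposited raw read counts per gene, with 13751347 to 21144388 per library. Counts from PCR copies understate the noise. Where nothing says otherwise, p-values measure the spread between mice, 1 library each.

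A mean of 10 or more counts was required (14062 of 55573 genes), and the genes were fitted in R 4.3.3 with edgeR 4.0.16 (TMM, 1 quasi-likelihood fit of the 4 groups, two-sided tests, Benjamini-Hochberg adjustment over all tested genes, threshold 0.05), and checked on simulated data. CPM use TMM-scaled library sizes, and correlations log2 CPM with a prior count of 2. Lengths and positions come from GENCODE M21 (GRCm38). Fold changes and their SE are on the log2 scale. The SE of the edgeR fit were derived from the F statistic of each test. The 95% intervals use the normal quantile and are therefore somewhat narrower than the tests imply.

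Named were the 10 markers, Flcn, the most abundant gene of each list of other cells, and the 5 genes most correlated with Clec4f, Vsig4 and Marco. Further genes were taken, per list and comparison, from the up to 3 called genes of lowest adjusted p with a mean of at least 1 CPM. Not all of these are named. Acta1, Ddx3y, the most abundant genes of the other lists and values of named genes in further comparisons were chosen after their values were seen. Members and lists were chosen with earlier results of these data known. Alternatives were RLE factors, DESeq2 1.42.0, limma-voom (limma 3.58.1), other filters, only the groups compared, a sex term read from Xist, the replicate block, fewer chow libraries, each liver left out and, chosen after seeing the data, library totals without TMM, livers with or without Xist, Csf1r as the denominator, and the lists without Cre MCD replicate 3 and the markers without the 3 livers with muscle RNA (Acta1 above 10 CPM).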

Additional observations from a re-analysis of the deposited data

Results flagged for a closer look

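Of 40 sets of livers (10 markers in 4 groups), 3 held a liver whose gap to its nearest neighbour was large for the range of its group by Dixon's criterion, and chance alone flags about 1 in 20. Clec4f in liver-Flcn-/- chow replicate 4 was at 145.5 CPM, with the others of the group at 176.2 to 185.7 CPM. Marco in liver-Flcn-/- chow replicate 1 was at 105.6 CPM, with the others at 16.99 to 29.5 CPM. Marco in liver-Flcn-/- MCD replicate 2 was at 94.61 CPM, with the others at 26.99 to 41.63 CPM.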

How the results depend on the processing

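Directions did not turn for any called marker under any alternative run. The count of called markers for the diet in Cre livers was 5, with 7 without TMM (3 lower and 4 higher; Clec4f lost and Cd5l, Adgre1 and Csf1r gained, all 3 higher) and 1 among livers without Xist. For the diet in liver-Flcn-/- livers it was 5, with 6 under DESeq2 (Id3 in addition), 7 among livers with Xist (Id3 and Cd5l in addition, both lower), 5 without the low-mapping chow libraries (Id3 gained and Csf1r lost, −0.47, adjusted p = 0.0511), 2 without TMM and 0 among livers without Xist. On chow, where Marco alone was called, the count was 2 under DESeq2, with only the groups compared, without TMM and without the 3 livers with muscle RNA (Timd4 in addition), and 0 under limma-voom, with the replicate block, without the low-mapping chow libraries, among livers with Xist and among those without. On MCD it was 2, both higher, with 1 for only the groups compared and 1 without the 3 livers with muscle RNA (Cd163 lost in both), 3 among livers with Xist (Timd4 higher, Cd5l and Csf1r lower, Cd163 lost) and 1 among livers without Xist. For the interaction it was 0, with 1 under DESeq2, 2 without TMM (Marco and Csf1r) and 1 among livers with Xist. No row exists for the interaction with only the groups compared, since that fit holds all groups.

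Leaving out each liver gave 5 to 5 and 5 to 6 calls for the diet in Cre and liver-Flcn-/- livers, 0 to 2 on chow (0 without liver-Flcn-/- chow replicate 1, 2 without Cre chow replicate 3 or Cre MCD replicate 3), 1 to 3 on MCD (1 without Cre MCD replicates 1, 3 or 4 or liver-Flcn-/- MCD replicates 1 or 6, where Cd163 was lost) and 0 to 1 for the interaction (1, Marco, without Cre MCD replicate 3, liver-Flcn-/- chow replicate 3 or liver-Flcn-/- MCD replicate 2). The fit with 3 on MCD called Csf1r in addition, lower in liver-Flcn-/- livers (adjusted p = 0.0435).

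Without the low-mapping chow libraries, fewer livers limit the exact permutation tests of ratios to Adgre1 and the adjustment over all 12 that they share: Clec4f −0.89 for the diet in Cre livers and 0.70 for genotype on MCD, Timd4 −1.24, 0.40 on chow and 1.47 on MCD no longer passed. With Csf1r as the denominator, Timd4 (−0.31) and Cd5l (0.23) passed for the diet in liver-Flcn-/- livers and Cd5l (−0.18) for genotype on chow. Leaving out each liver, the ratio of Clec4f ranged from −0.98 to −0.63 and −0.29 to −0.096 for the diet in Cre and liver-Flcn-/- livers, −0.032 to 0.062 for genotype on chow and 0.45 to 0.81 on MCD (a call lost in 8 of 22 cases), that of Timd4 from −1.31 to −0.95, −0.41 to −0.20, 0.46 to 0.64 and 1.21 to 1.57, and that of Cd5l from −0.086 to 0.20, 0.17 to 0.33, −0.23 to −0.097 and −0.098 to 0.19. Calls were gained in 1 of 22 cases each for Timd4 (−0.41 without liver-Flcn-/- MCD replicate 3) and Cd5l (0.33 without liver-Flcn-/- chow replicate 1) for the diet in liver-Flcn-/- livers, and for Cd5l for genotype on chow (−0.23 without liver-Flcn-/- chow replicate 1).

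Pairing of the mice by replicate number was not assumed. Same-numbered mice had mean correlations of −0.095 and −0.013 between diets and 0.068 and 0.135 between genotypes on chow and MCD. The pairs ran from −0.158 to −0.014 and −0.207 to 0.240 between diets, from −0.600 to 0.519 between genotypes on chow (3 of 5 over 0.1) and from 0.077 to 0.265 on MCD (3 of 5 over 0.1). The 3 chow pairs over 0.1 joined livers alike in Xist and in unique mapping, and the negative chow pairs joined unlike ones. The chow mean therefore cannot show whether mice were paired. The block moved only the count on chow, to 0 (Marco 1.90, adjusted p = 0.0597). The causes of these changes were not tested beyond the number of livers left in each fit.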
